A study of Homo sapiens with 12 samples.

Results

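The genes described are the catalytic class I histone deacetylases HDAC1, HDAC2, HDAC3 and HDAC8 and the corepressor scaffolds SIN3A, SIN3B, RCOR1 and NCOR1. They were chosen by symbol, and all 8 of them were found, each once, among the 58278 listed genes. All 8 passed the filter on low counts, and each is compared over the 12 libraries. The cells were HK2, an immortalised line of human renal proximal tubular epithelial cells. The Ctrl group was left untreated. The TN group received TNF-α, an inflammatory cytokine, at 5 ng/mL for 3 h. PRTN and BUTN received propionate at 15 mM or butyrate at 3 mM for 24 h before the TNF-α, and TNPR and TNBU received the same short-chain fatty acids (SCFAs) for 24 h after it. Each group has 2 biological replicates, so the spread is that between 2 cultures of one cell line. No group with an SCFA but without TNF-α, and no TNF-α group collected as late as TNPR and TNBU, was analysed here, so the SCFA cannot be told apart from the later collection in those comparisons. The labels of every library also carry a general treatment text that names thapsigargin and JQ1, which goes against the labels of the single libraries and was not used.

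Class I HDACs remove acetyl groups from histone tails, and most of them do so inside large corepressor complexes. HDAC1 and HDAC2 are close relatives that serve as the catalytic subunits of the Sin3, NuRD, CoREST and MiDAC complexes, while HDAC3 is activated by binding the NCoR corepressor, and HDAC8 works outside these complexes. Butyrate and propionate are known inhibitors of class I HDAC enzymes, and the question asked of these libraries is whether transcripts of the enzymes and of their scaffolds also changed. Messenger RNA measures neither protein nor enzyme activity.

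The members that moved most are introduced by the sequence before their start sites, since HDAC1 and HDAC3 rose and HDAC2 and NCOR1 fell with an SCFA. The sequences are from the RefSeq promoter table on GRCh38.p14, on the strand of the gene, and cover the longest stretch without annotated exons within the 250 bases before the start: chr1:32291833-32292082 on the plus strand for HDAC1, and on the minus strand chr6:113971158-113971398 for HDAC2, chr5:141636850-141636949 for HDAC3 and chr17:16215555-16215653 for NCOR1. Capitals mark a GC box (GGGCGG, or CCGCCC on the other strand) or a CCAAT box (CCAAT, or ATTGG), and overlapping matches were both counted.
HDAC1: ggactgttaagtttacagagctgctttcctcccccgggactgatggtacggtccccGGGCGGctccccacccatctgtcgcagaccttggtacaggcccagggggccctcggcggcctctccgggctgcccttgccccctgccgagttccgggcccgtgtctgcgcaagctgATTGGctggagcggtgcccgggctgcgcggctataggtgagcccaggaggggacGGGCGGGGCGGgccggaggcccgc
HDAC2: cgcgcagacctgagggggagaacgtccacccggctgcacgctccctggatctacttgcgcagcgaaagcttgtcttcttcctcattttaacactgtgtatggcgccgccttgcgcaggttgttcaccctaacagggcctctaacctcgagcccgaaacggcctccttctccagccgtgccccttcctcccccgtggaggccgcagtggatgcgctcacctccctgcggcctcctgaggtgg
HDAC3: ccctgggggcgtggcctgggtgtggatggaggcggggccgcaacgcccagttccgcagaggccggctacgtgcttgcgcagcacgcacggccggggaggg
NCOR1: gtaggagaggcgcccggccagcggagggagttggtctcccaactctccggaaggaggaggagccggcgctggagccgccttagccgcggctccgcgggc

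Over the whole 250 bases, the HDAC1 window held 3 GC boxes and 1 CCAAT box, the HDAC3 window 1 GC box, outside the printed stretch, and the windows of HDAC2 and NCOR1 neither motif. The shares of all 35116 promoters of this length with a match were 42.6% for the GC box and 32% for the CCAAT box, so a match or its absence is common. Among the other members, the window before the canonical start of SIN3A held 4 GC boxes and 3 CCAAT boxes and that of RCOR1 held 5 and 1, while that of HDAC8 held neither. The window listed for SIN3B lies far downstream of its canonical start and was not read.

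Total counts were between 27269986 and 33851130 per library (median 30545923), and 24342 genes passed the filter. Replicates lay closer together in Ctrl, TN, PRTN and BUTN, with median absolute log2 differences between 0.116 and 0.153, than in TNPR (0.201) and TNBU (0.232). The cells carried epithelial transcripts, with 8 of 9 markers over 1 CPM (the count of a gene scaled to a common library total with TMM factors, a correction for library composition) in every library and a summed level of 2050 to 2130 CPM without and 2190 to 2790 CPM with an SCFA. Of 8 markers of the mature proximal tubule, 3 stayed under 1 CPM in every library (LRP2, SLC34A1 and SLC22A6). Their summed level was 184 to 228 CPM without and 73.9 to 95.5 CPM with an SCFA, which was a drop of GGT1 (group means of 221 and 194 against 63.9 to 72.4 CPM), while AQP1 (0.54 and 0.439 against 6.31 to 14.8 CPM), CUBN, LRP2 and ANPEP were higher with an SCFA. Summed markers of fibroblasts (52.9 to 59.8 against 204 to 255 CPM), leukocytes (0.782 to 1 against 2.28 to 4.72 CPM) and endothelium (0.143 to 0.287 against 2.21 to 3.64 CPM) were higher with an SCFA, and the leukocyte gene PTPRC stayed at or under 0.152 CPM. The part of these marker shifts in the results below was not tested. In bulk RNA, fewer cells of one kind and less RNA per cell cannot be told apart.

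Levels are given as CPM and differences as log2 fold changes from limma-voom with their standard error (SE). A gene is said to have risen or fallen where its Benjamini-Hochberg adjusted p over all 24342 tested genes was under 0.05, and is called higher or lower where its fold change was also over 1.5. TNF-α alone called none of the 8 genes, 0 of 8 against 1.3% of all tested genes, and 0 of 8 against 3.51% on the adjusted p alone. In PRTN vs TN, 1 of the 8 was called higher (23.9% of all tested genes) and 0 lower (16.7%), and on the adjusted p alone 4 rose (30.6%) and 2 fell (25.8%). In BUTN vs TN, 1 was called higher (23.1%) and 1 lower (14.8%), with 3 risen (29.7%) and 2 fallen (25.4%) on the adjusted p alone. In TNPR vs TN the calls were 1 higher (24.9%) and 1 lower (16.9%), and 3 rose (31.6%) and 2 fell (26%). In TNBU vs TN they were 1 higher (25%) and 1 lower (16.5%), and 2 rose (31.3%) and 2 fell (26%). Called members made up a smaller share than called genes of the whole table in every comparison and direction, so the counts do not set the members apart and the results are given gene by gene. Their median log2 fold change against TN, between 0.06 and 0.19, lay near that of all tested genes, between 0.08 and 0.12. All tested genes include ones of far lower level than the 8. For tested genes with a mean over 1 CPM, medians by transcript length were between -0.13 and 0.04. These 4 comparisons share the same 2 TN libraries.

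**Figure D1:**
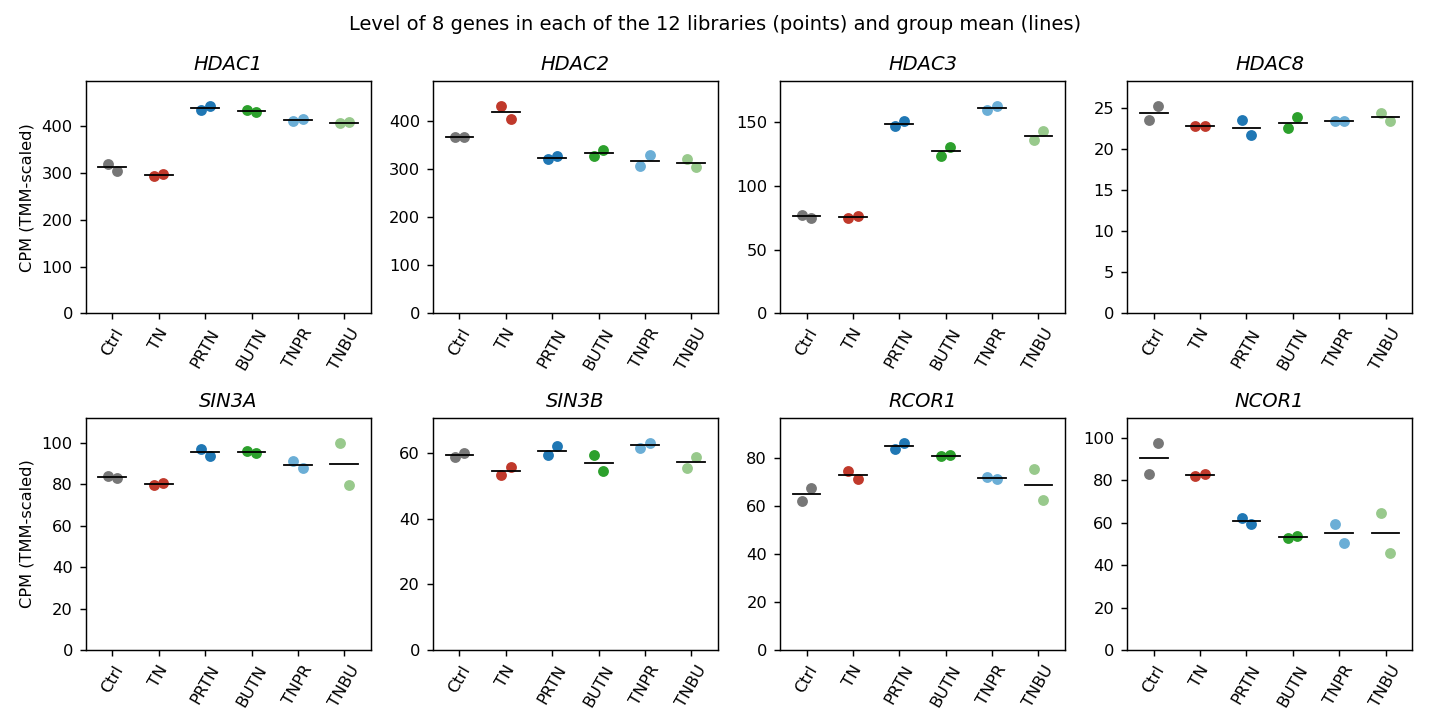
Level of each of the 8 genes in CPM (vertical axes, from 0) in the 12 libraries by group, with points for single libraries and lines for group means. HDAC3 sat between 74.9 and 77.7 CPM for Ctrl and TN and between 124 and 163 CPM in every SCFA library, HDAC1 rose and HDAC2 and NCOR1 fell, and HDAC8 stayed between 21.7 and 25.3 CPM.

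HDAC3, the catalytic subunit of the NCoR complex, was the member with the largest rise. Its gene lies on the minus strand at chr5:141620876-141636849, and its canonical transcript has 15 exons. It was at 77.7 and 74.9 CPM for Ctrl, 75.1 and 76.5 for TN, 147 and 151 for PRTN, 124 and 131 for BUTN, 160 and 163 for TNPR, and 136 and 143 for TNBU. All 8 SCFA libraries were above all 4 libraries without an SCFA, and the replicates of each group stood close together. Against TN its log2 fold change was 0.98 for PRTN (SE 0.0574, adjusted p = 2.94e-08), 0.75 for BUTN (SE 0.0579, adjusted p = 3.73e-07), 1.09 for TNPR (SE 0.0573, adjusted p = 1.1e-08) and 0.88 for TNBU (SE 0.058, adjusted p = 8.4e-08). It was the only member called higher in all 4 comparisons, a change of 1.68-fold to 2.13-fold, and it was called in each of them under all 12 alternatives that kept this call rule. At a fold change over 2 it was called only in TNPR. TNF-α alone left it at 0.994-fold, with a 95% interval of the log2 fold change from -0.14 to 0.12.

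HDAC1, a catalytic subunit of the Sin3, NuRD, CoREST and MiDAC complexes (plus strand, chr1:32292083-32333635), rose less. Its levels were 320 and 305 CPM for Ctrl, 295 and 298 for TN, 435 and 444 for PRTN, 435 and 431 for BUTN, 412 and 415 for TNPR, and 408 and 409 for TNBU. The SCFA libraries did not overlap those without an SCFA, and no pair of replicates differed by more than the 320 and 305 CPM of Ctrl. The log2 fold change against TN was 0.57 for PRTN, 0.55 for BUTN, 0.48 for TNPR and 0.46 for TNBU, with SEs of 0.0465 to 0.047 and adjusted p-values of 4.85e-07, 8.37e-07, 2.11e-06 and 3.44e-06. HDAC1 thus rose in all 4 comparisons by 1.38-fold to 1.48-fold, under the 1.5-fold threshold. When libraries were scaled by their total count alone, which moves the median log2 fold change of all tested genes against TN to between 0.23 and 0.29, it passed that threshold in all 4, with log2 fold changes of 0.72, 0.70, 0.65 and 0.66.

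HDAC2, the close relative of HDAC1 that can take its place in the same complexes (minus strand, chr6:113933028-114011308), went the other way. It was at 367 and 368 CPM for Ctrl, 432 and 405 for TN, 321 and 328 for PRTN, 328 and 341 for BUTN, 306 and 329 for TNPR, and 322 and 304 for TNBU. TN held the highest libraries and every SCFA library lay below Ctrl, so that the 3 sets did not overlap. Against TN, HDAC2 fell by 0.37 on the log2 scale in PRTN (adjusted p = 0.000117), by 0.32 in BUTN (adjusted p = 0.000363), by 0.40 in TNPR (adjusted p = 5.86e-05) and by 0.42 in TNBU (adjusted p = 4.09e-05), all under 1.5-fold. All 4 adjusted p-values stayed under 0.05 in each of the 12 alternatives. In TN vs Ctrl its log2 fold change was 0.19 (SE 0.0565, unadjusted p = 0.00652, adjusted p = 0.104), the only one of the 8 members with an unadjusted p under 0.05, and edgeR and DESeq2 also called 0 of the 8 there, although its adjusted p with DESeq2 was 0.0346. Set against Ctrl, HDAC2 differed less, with log2 fold changes of -0.18 (adjusted p = 0.016) in PRTN, -0.14 (adjusted p = 0.0594) in BUTN, -0.21 (adjusted p = 0.00672) in TNPR and -0.23 (adjusted p = 0.00381) in TNBU, and in each of these at least 1 alternative gave an adjusted p of 0.193 or more.

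HDAC8, a class I enzyme that also deacetylates the cohesin subunit SMC3, did not pass the test in any comparison with TN or in TN vs Ctrl (minus strand, chrX:72329516-72573101). Its levels were 23.6 and 25.3 CPM for Ctrl, 22.9 and 22.9 for TN, 23.6 and 21.7 for PRTN, 22.6 and 23.9 for BUTN, 23.5 and 23.5 for TNPR, and 24.4 and 23.5 for TNBU. PRTN and BUTN spanned the level of TN, while Ctrl, TNPR and TNBU lay slightly above it, and the log2 fold changes against TN were -0.02, 0.02, 0.04 and 0.06. Their 95% intervals reached from -0.18 at the lowest, in PRTN, to 0.23 at the highest, in TNBU, so changes over 1.5-fold lie outside them. Scaled by total count alone, HDAC8 passed in TNPR (0.21, adjusted p = 0.0328) and TNBU (0.26, adjusted p = 0.0122).

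**Figure D2:**
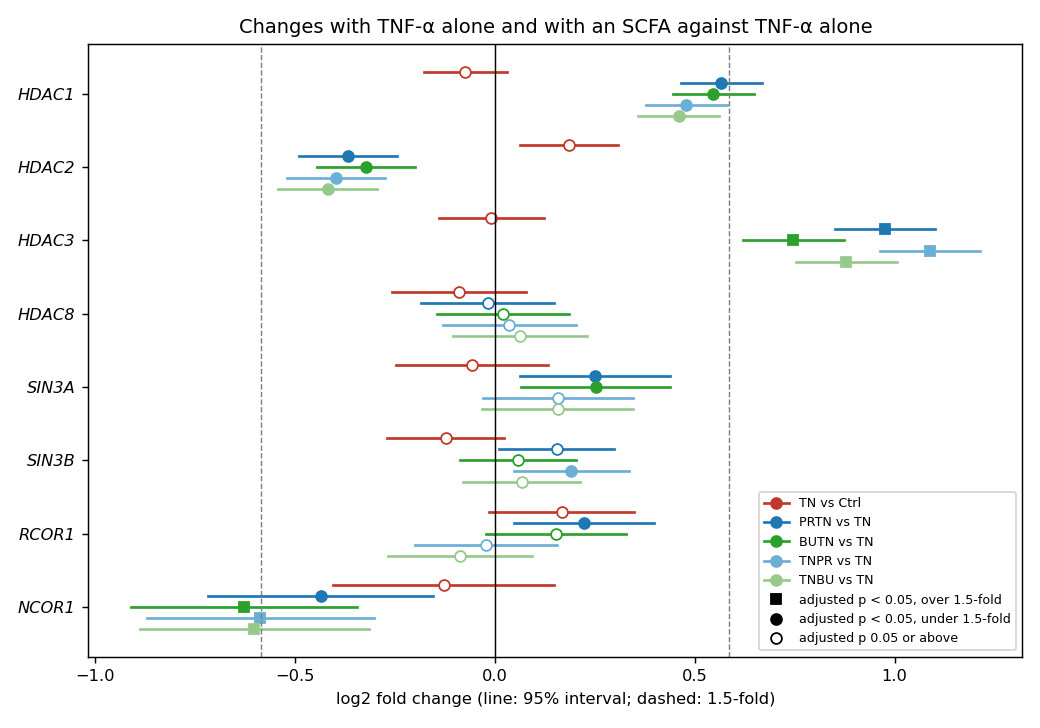
Log2 fold change of each gene (horizontal axis) in TN vs Ctrl and in the 4 SCFA groups vs TN, with lines for 95% intervals and dashed lines at 1.5-fold. Filled squares mark calls, filled circles an adjusted p under 0.05 at under 1.5-fold and open circles the rest, and squares appear for HDAC3 in all 4 comparisons with TN and for NCOR1 in 3.

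NCOR1, the scaffold that binds and activates HDAC3 for nuclear receptors and other repressors (minus strand, chr17:16029065-16218185), was lower with an SCFA. It was at 83.1 and 97.8 CPM for Ctrl, 81.9 and 83 for TN, 62.3 and 59.6 for PRTN, 53 and 53.7 for BUTN, 59.5 and 50.6 for TNPR, and 64.5 and 45.9 for TNBU. Every SCFA library was below every library without an SCFA, but the TNBU replicates stood far apart. Against TN, NCOR1 had a log2 fold change of -0.44 for PRTN (SE 0.129, adjusted p = 0.0116), -0.63 for BUTN (SE 0.13, adjusted p = 0.00129), -0.59 for TNPR (SE 0.13, adjusted p = 0.0019) and -0.60 for TNBU (SE 0.132, adjusted p = 0.00171), and it was called lower in the last 3. The calls in TNPR and TNBU stood close to the fold threshold. They were lost with edgeR (-0.58 in both) and DESeq2 (-0.58 and -0.56), where the adjusted p stayed under 0.05 and the fold fell under 1.5. Without TNPR replicate 2 the value was -0.53, and without TNBU replicate 2 it was -0.38. Scaled by total count alone, all 3 calls were lost, at -0.47 for BUTN, -0.41 for TNPR and -0.41 for TNBU, and the adjusted p for PRTN was 0.0771.

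The reads of NCOR1 carry some uncertainty, and limits of this kind apply to other members as well. The gene overlaps TTC19 (712.65 to 974.19 counts per library) and PIGL (112.56 to 208.84 counts) on the opposite strand, and the strand setting of the counting is not given in the sources used here, though the library kit marks strand. HDAC2 overlaps the antisense gene HDAC2-AS2, which held 10 to 53 counts per library. The pseudogenes HDAC1P1 and NCOR1P1 held at most 4 and 3.02 counts. RSEM divides reads that fit several genes, which leaves fractions in the counts. Deposited counts were whole in 12 of 12 libraries for HDAC8, SIN3B and RCOR1, in 11 for HDAC2 and in 10 for HDAC1, but only in 2 for HDAC3 and in 1 each for SIN3A and NCOR1. In annotation newer than that of the counts, HDAC8 shares 243328 bases with a protein-coding locus on its own strand that the counted annotation does not list.

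The length of a transcript also moved with the difference between replicates, a comparison added after the data were seen. In TNBU, the median log2 difference of replicate 1 minus replicate 2 was -0.11 for genes with a canonical transcript under 2 kb (4291 genes) and 0.19 for genes over 6 kb (2494 genes). The same difference was 0.49 for NCOR1 (canonical transcript of 10705 nt), 0.33 for SIN3A (6723 nt), 0.27 for RCOR1 (5751 nt), 0.08 for HDAC2 (9737 nt) and -0.0029 for HDAC1 (2118 nt). It was -0.08 for HDAC3 (1933 nt), -0.08 for SIN3B (5038 nt) and 0.05 for HDAC8 (1754 nt). SIN3B and HDAC8 thus had the opposite sign to the medians of genes of 4 to 6 kb (0.08) and under 2 kb (-0.11). The median log2 fold change against TN of genes over 6 kb was between -0.13 and -0.09 in the 4 SCFA groups, and its part in the values of NCOR1 was not tested.

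SIN3A, a scaffold that holds HDAC1 and HDAC2 in the Sin3 complex (minus strand, chr15:75369379-75455842), was at 83.7 and 82.8 CPM for Ctrl, 79.7 and 80.4 for TN, 97.1 and 93.5 for PRTN, 96 and 94.8 for BUTN, 91 and 87.6 for TNPR, and 100 and 79.8 for TNBU. The libraries of PRTN, BUTN and TNPR all lay above those of TN, while one TNBU library lay within the range of TN and the other was the highest of all 12. Against TN it rose in PRTN (log2 fold change 0.25, adjusted p = 0.0247) and BUTN (0.25, adjusted p = 0.0249), and the values in TNPR (0.16, adjusted p = 0.14) and TNBU (0.16, adjusted p = 0.142) did not pass. Both rises were lost without the filter on low counts (adjusted p = 0.0569 and 0.0604) and whenever 1 replicate of the groups compared was left out, with adjusted p-values of 0.0952 to 0.189 for PRTN and 0.0951 to 0.14 for BUTN. In TNBU it passed without TNBU replicate 2 (0.30, adjusted p = 0.00145). Scaled by total count alone, SIN3A passed in all 4 comparisons, with log2 fold changes of 0.33 to 0.41.

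SIN3B, its paralog with the same role as a platform for HDAC1 and HDAC2 (plus strand, chr19:16829398-16880353), was at 58.9 and 60 CPM for Ctrl, 53.2 and 55.9 for TN, 59.5 and 62.1 for PRTN, 59.3 and 54.5 for BUTN, 61.5 and 63.2 for TNPR, and 55.6 and 58.7 for TNBU. BUTN and TNBU overlapped TN. Against TN it rose only in TNPR, by 1.14-fold (log2 fold change 0.19, adjusted p = 0.0254), and this was lost without the filter on low counts (adjusted p = 0.0557), with only the groups compared (adjusted p = 0.106) and whenever 1 replicate was left out (adjusted p = 0.0697 to 0.254). The other 3 values were 0.16 in PRTN (adjusted p = 0.0629), 0.06 in BUTN (adjusted p = 0.492) and 0.07 in TNBU (adjusted p = 0.418). Scaled by total count alone, SIN3B passed in all 4, with log2 fold changes of 0.21 to 0.36.

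RCOR1 encodes CoREST, the scaffold that couples HDAC1 and HDAC2 to the demethylase KDM1A (plus strand, chr14:102592649-102730561). It was at 62.3 and 67.7 CPM for Ctrl, 74.6 and 71.3 for TN, 83.7 and 86.5 for PRTN, 80.9 and 81.2 for BUTN, 72.3 and 71.3 for TNPR, and 75.4 and 62.5 for TNBU. PRTN and BUTN held the highest libraries, and TNPR and TNBU overlapped TN. Against TN it rose in PRTN (log2 fold change 0.22, adjusted p = 0.0315), with values of 0.15 in BUTN (adjusted p = 0.13), -0.02 in TNPR (adjusted p = 0.834) and -0.09 in TNBU (adjusted p = 0.39). The rise in PRTN was lost without the filter on low counts (adjusted p = 0.0642), with the default filter of edgeR (adjusted p = 0.0536) and whenever 1 replicate was left out (adjusted p = 0.0948 to 0.23). In BUTN it passed when scaled by total count alone (0.31, adjusted p = 0.00574) and with only the groups compared (0.15, adjusted p = 0.0418), and in TNBU, where it was lower, without TNBU replicate 1 (-0.26, adjusted p = 0.00975). Against Ctrl it rose in PRTN (0.39, adjusted p = 0.00123) and BUTN (0.32, adjusted p = 0.00511, and 0.0604 without Ctrl replicate 1).

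Set against untreated cells, the calls were for the same members. In PRTN vs Ctrl, HDAC3 was the 1 member called (39.4% of all tested genes called in either direction), with a log2 fold change of 0.97. In BUTN vs Ctrl (36.9%), TNPR vs Ctrl (40.4%) and TNBU vs Ctrl (40%), HDAC3 was called higher, with 0.74, 1.08 and 0.87, and NCOR1 lower, with -0.76, -0.71 and -0.73. In PRTN vs Ctrl the value of NCOR1 was -0.56 (adjusted p = 0.0023), just under 1.5-fold, and it was called there with no filter on low counts (-0.59), with the default filter of edgeR (-0.60), without Ctrl replicate 1 (-0.68) and without PRTN replicate 1 (-0.62). In TNBU vs Ctrl the call of NCOR1 was lost without TNBU replicate 2 (-0.50). HDAC1 rose in all 4, by 0.49, 0.47, 0.40 and 0.39 on the log2 scale.

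Propionate and butyrate, which differ by a methylene group in the chain, were given at different concentrations, so the groups are compared as treated and not at matched doses. Neither PRTN vs BUTN (0.168% of all tested genes called) nor TNPR vs TNBU (0.00822%) called any of the 8 genes, and edgeR and DESeq2 called none either. HDAC3 had the only unadjusted p under 0.05 in both, with a log2 difference of 0.23 (95% interval 0.11 to 0.35, adjusted p = 0.0856) before and 0.21 (95% interval 0.09 to 0.33, adjusted p = 0.345) after TNF-α, higher with propionate both times. In PRTN vs BUTN its adjusted p was 0.0279 with DESeq2 and 0.0104 with only the groups compared, at under 1.5-fold. All 4 propionate libraries of HDAC3 (147 to 163 CPM) were above all 4 butyrate libraries (124 to 143 CPM). For the other 7 genes the 95% intervals of the log2 difference reached at most 0.48 from 0, for NCOR1 in PRTN vs BUTN (-0.09 to 0.48).

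Giving the SCFA after rather than before TNF-α made no call among the 8 genes, in TNPR vs PRTN (0.16% of all tested genes called) or in TNBU vs BUTN (0.267%), with limma-voom, edgeR or DESeq2. TNPR and TNBU were also collected longer after TNF-α than PRTN and BUTN. The time of the SCFA cannot be told apart from the time since TNF-α in these comparisons. RCOR1 had a log2 difference, later minus earlier, of -0.25 (95% interval -0.42 to -0.07, unadjusted p = 0.00926, adjusted p = 0.271) with propionate and of -0.24 (95% interval -0.42 to -0.06, unadjusted p = 0.0115, adjusted p = 0.202) with butyrate, and neither passed the adjustment, though the butyrate value did without TNBU replicate 1 (-0.39, adjusted p = 0.0145). HDAC3 had values of 0.11 (adjusted p = 0.462) and 0.13 (unadjusted p = 0.0346, adjusted p = 0.305). The test of whether the effect of time differed between the SCFAs called 0 of the 8 genes and 0% of all tested genes, and none of the 8 had an unadjusted p under 0.05 in it.

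Ratios of counts within a library need no scaling between libraries, and 3 pairs of related members were compared between the 8 SCFA libraries and the 4 without. Such ratios do not remove differences between libraries that go with transcript length. Counts of HDAC2 were 1.15 and 1.21 times those of HDAC1 in Ctrl and 1.46 and 1.36 times in TN, and 0.737 to 0.794 times in the SCFA libraries. The order of the paralogs in counts was thus turned in all 8 SCFA libraries. The mean log2 ratio differed by -0.76 (exact two-sided permutation test, p = 0.00202, the smallest that 495 arrangements allow, adjusted over the 3 ratios p = 0.00303). Counts of HDAC3 were 0.766 to 0.935 times those of NCOR1 without and 2.1 to 3.22 times with an SCFA, a difference in mean log2 ratio of 1.55 (exact two-sided permutation test, p = 0.00202, adjusted p = 0.00303). For SIN3B to SIN3A, the ranges of 0.668 to 0.724 and 0.556 to 0.736 overlapped, and the difference of -0.12 did not pass (exact two-sided permutation test, p = 0.149). The members were chosen with earlier results known, so these p-values describe changes already seen in the fits above. The test also treats the 12 libraries as exchangeable, although they come from 6 groups. Ctrl and TN, which it pools, did not overlap in the ratio of HDAC2 to HDAC1.

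**Figure D3:**
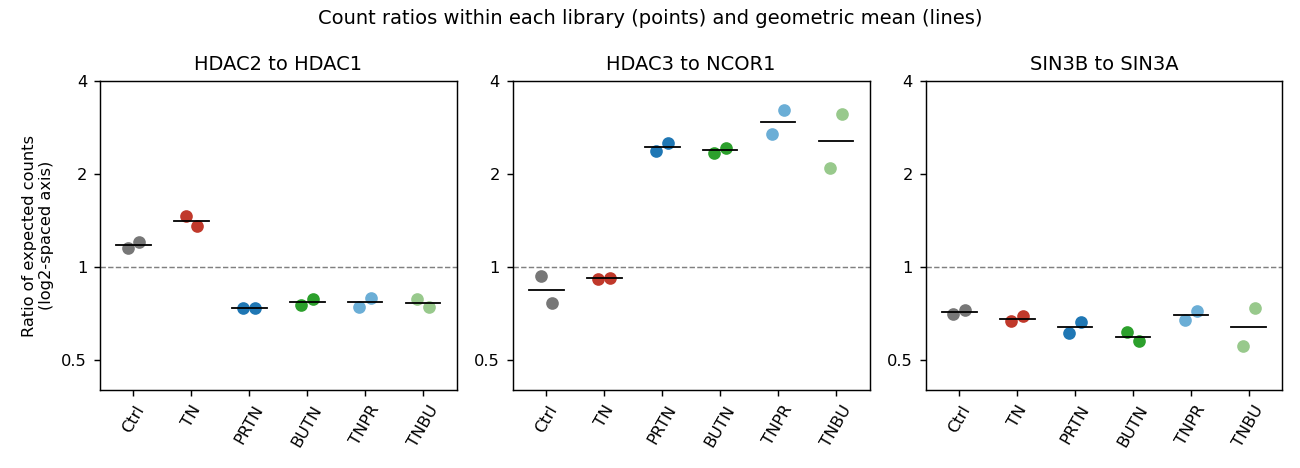
Ratio of expected counts within each library (vertical axis, log2-spaced) for 3 pairs of members by group, with points for libraries, lines for geometric means and a dashed line at equal counts. HDAC2 to HDAC1 lies above 1 in Ctrl and TN and between 0.737 and 0.794 with an SCFA, HDAC3 to NCOR1 lies under 1 without and at 2.1 and above with an SCFA, and SIN3B to SIN3A overlaps. The line at equal counts does not order levels between transcripts of different length.

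Levels can be ordered between genes only per length. Per kb of the canonical transcript, TN means were 140 CPM for HDAC1, 43 for HDAC2, 39.2 for HDAC3, 13.1 for HDAC8, 12.7 for RCOR1, 11.9 for SIN3A, 10.8 for SIN3B and 7.7 for NCOR1. HDAC2 and HDAC3 were close in TN (SD 2 and 0.513), HDAC8 and RCOR1 lay within their SDs of each other (0.0133 and 0.413), and HDAC3 at 77.1 CPM per kb was above HDAC2 at 33.3 in PRTN. The place of HDAC2 depends on the length used, since its canonical transcript of 9737 nt holds a coding sequence of 1464 nt. Per kb of coding sequence HDAC2 was at 286 CPM in TN against 205 for HDAC1 and 59 for HDAC3, and in PRTN at 222 against 304 and 116. HDAC1 was above HDAC2 with an SCFA by both lengths, while without an SCFA the order differed between them. NCOR1 had the lowest level per kb in every group by both lengths.

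The other subunits of the same complexes, 44 genes listed by complex, give the surroundings of the 8 genes. TNF-α alone called 0 of the 44 higher and 1 lower, the RCOR1 paralog RCOR2, which is named because it was the only one. It was at 7.18 and 7.49 CPM for Ctrl and 3.31 and 5.31 for TN (log2 fold change -0.80, adjusted p = 0.0466), and the call was lost with no filter on low counts, with the replicate block, with only the groups compared (adjusted p = 0.0748, where TRERF1 of MiDAC was called higher instead) and without Ctrl replicate 1, Ctrl replicate 2 or TN replicate 1 (adjusted p = 0.181, 0.189 and 0.372). Against TN, 8 were called higher and 10 lower for PRTN, 7 and 8 for BUTN, 5 and 13 for TNPR, and 6 and 13 for TNBU, beside the shares of all tested genes given above. Their median log2 fold changes were -0.28, -0.25, -0.30 and -0.27, against 0.09, 0.08, 0.12 and 0.09 for all tested genes. The 2 sets differ in level, since every subunit had a mean of 6.9 CPM or more and all tested genes include far lower ones. For tested genes with a mean over 1 CPM, medians by transcript length ran from -0.13 to 0.04 in these comparisons. Scaled by total count alone, the split turned to 11 higher and 7 lower for PRTN, 9 and 6 for BUTN, 11 and 9 for TNPR, and 10 and 8 for TNBU. Called higher in all 4 comparisons were 3 subunits, called lower in all 4 were 8, and 21 of the 44 were called in none. The shares of all tested genes called in all 4 or in none were not counted. Nor were the shares under scaling by total count alone, here or per complex below. Those counts therefore do not set the subunits apart from other genes.

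**Figure D4:**
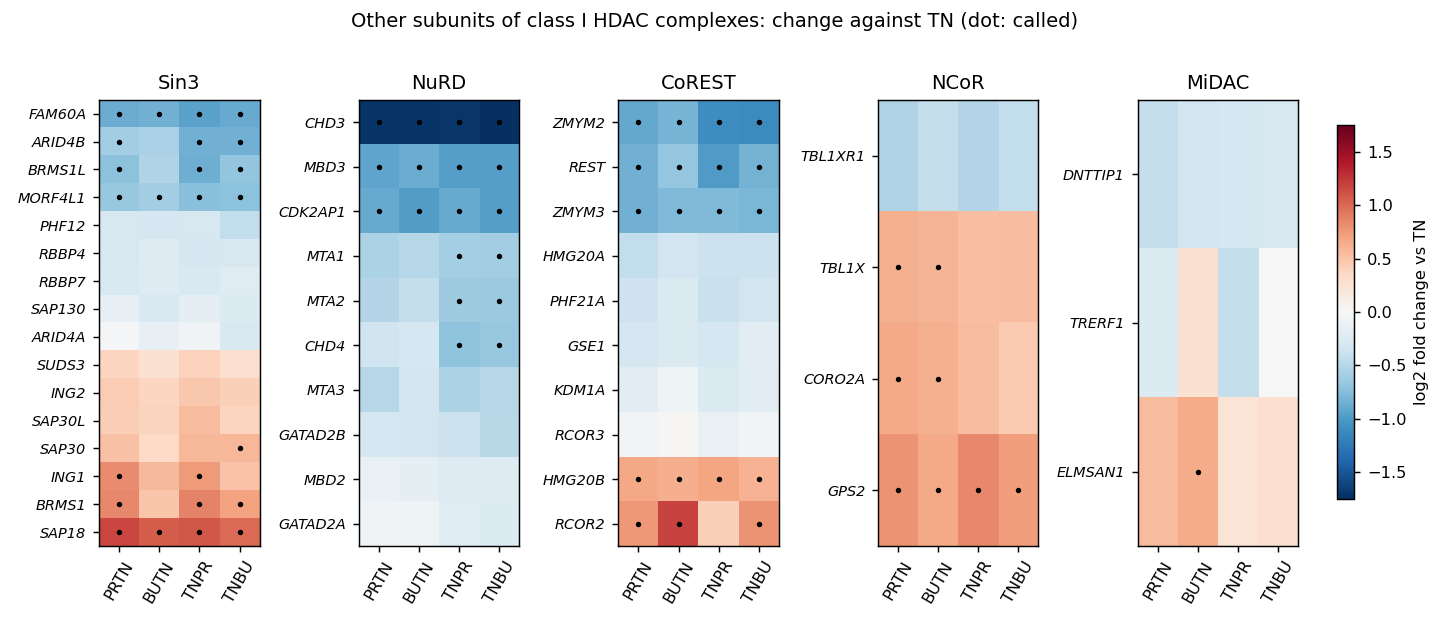
Log2 fold change against TN (colour, from blue for lower to red for higher) of other subunits in 5 complexes, 1 subunit not shown, with dots for subunits called higher or lower. CHD3 at -1.74 to -1.70 is the darkest row, no NuRD subunit is called higher, and calls in both directions appear in Sin3 and CoREST.

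NuRD, which joins HDAC1 and HDAC2 to a chromatin remodelling ATPase, had no subunit of 10 called higher and 3, 3, 6 and 6 called lower in PRTN, BUTN, TNPR and TNBU, beside 16.7%, 14.8%, 16.9% and 16.5% of all tested genes called lower and 23.9%, 23.1%, 24.9% and 25% called higher. Scaled by total count alone, 3 were called lower each time and 0 higher. The ATPase CHD3 was at 231 and 241 CPM for Ctrl, 217 and 222 for TN, and between 61.2 and 74.3 in the SCFA libraries. Its log2 fold change against TN was -1.71, -1.71, -1.70 and -1.74, the largest fall of the 44 subunits. MBD3, which distinguishes a form of NuRD, was at 69.8 and 79.6 CPM for TN and 36.2 to 43.6 with an SCFA (-0.93, -0.87, -0.96 and -0.96), and CDK2AP1 was the third NuRD subunit called lower in all 4.

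Of the 16 Sin3 subunits, 3, 1, 3 and 3 were called higher and 4, 2, 4 and 4 lower. Beside these stand 23.9%, 23.1%, 24.9% and 25% of all tested genes called higher and 16.7%, 14.8%, 16.9% and 16.5% lower. Scaled by total count alone, 5, 3, 6 and 5 subunits were called higher and 1, 1, 3 and 2 lower. SAP18 was at 54.7 and 57.8 CPM for TN and 105 to 128 with an SCFA (log2 fold change 1.18, 1.06, 1.09 and 0.99), and BRMS1, called higher in 3 of the 4, was at 36.5 and 38.7 and at 52.4 to 73. FAM60A was at 169 and 153 CPM for TN and 77.9 to 97.4 with an SCFA (-0.87, -0.84, -0.94 and -0.89), and ARID4B, called lower in 3, was at 106 and 94.3 and at 51.4 to 68. MORF4L1, which reads methylated lysine 36 of histone H3, was the other Sin3 subunit called lower in all 4.

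CoREST had 10 listed subunits, of which 2, 2, 1 and 2 were called higher and 3 lower each time. Beside these stand 23.9%, 23.1%, 24.9% and 25% of all tested genes called higher and 16.7%, 14.8%, 16.9% and 16.5% lower. Scaled by total count alone, 2 subunits were called higher each time and 3, 2, 3 and 3 lower. The HMG-box protein HMG20B was at 49.6 and 53.4 CPM for TN and 73.2 to 86.2 with an SCFA (log2 fold change 0.67, 0.63, 0.69 and 0.61). ZMYM2, a zinc finger protein, was at 117 and 112 and at 46.6 to 66.2 (-0.89, -0.81, -1.09 and -1.12). REST, the silencer of neuronal genes that recruits CoREST, was at 58.4 and 58.4 CPM for TN and 27.4 to 37.8 with an SCFA (-0.84, -0.67, -0.99 and -0.83), and ZMYM3 was also called lower in all 4.

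Of the 5 NCoR subunits other than HDAC3 and NCOR1, 3, 3, 1 and 1 were called higher and 0 lower. Of all tested genes, 23.9%, 23.1%, 24.9% and 25% were called higher and 16.7%, 14.8%, 16.9% and 16.5% lower. On the adjusted p alone, 3 subunits rose and 2 fell each time, beside 30.6%, 29.7%, 31.6% and 31.3% risen and 25.8%, 25.4%, 26% and 26% fallen. TBL1XR1 was 1 of those that fell (log2 fold change -0.53, -0.42, -0.51 and -0.42). Scaled by total count alone, 3 subunits were called higher each time and 0 lower. GPS2, a core subunit, was at 35.9 and 37.9 CPM for TN and 57.8 to 67.1 with an SCFA (log2 fold change 0.79, 0.67, 0.85 and 0.73). CORO2A, called in PRTN and BUTN, was at 27.6 and 29 and at 37.9 to 46. Of the 3 MiDAC genes only the scaffold ELMSAN1 was called, in BUTN, with 1 gene called higher in PRTN as well when scaled by total count alone. ELMSAN1 was at 77.2 and 77.1 CPM for TN and 85.2 to 126 with an SCFA. On the adjusted p alone, 1, 2, 0 and 1 MiDAC genes rose and 1, 1, 2 and 1 fell, beside the same shares.

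Genes whose log2 CPM followed a member most closely over the 12 libraries were sought among 14983 tested genes with a mean over 1 CPM, and the correlations are descriptions over libraries that share their 6 groups. HDAC1 was followed by BCAM (Pearson r = 0.997), SLC40A1 and GSR, HDAC2 by YWHAZ (r = 0.988), RNF2 and PPP2CA, and HDAC3 by SKIV2L (r = 0.997), SIRT2 and DNAAF1. NCOR1 was followed by CDK12 and PDPR, SIN3A by PCNX1 (r = 0.958), IPO9 and FAM3C2, RCOR1 by SUZ12 (r = 0.951), RAB31 and SNX30, and SIN3B by DNM2 (r = 0.921), CDIPT and MAP3K10. For HDAC8 no gene reached more than r = 0.782 (OXCT2P1, then FAT1 and PHKB).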

How the data were processed

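Transcripts of HK2 cells were read in 12 libraries, and the label of each library gave its group (6 groups with 2 biological replicates). The authors deposited expected counts for every gene, estimated with RSEM after aligning reads of stranded mRNA libraries to GRCh38 with STAR 2.6.1a (the tools and build are named in the submitters' processing notes). The strand setting and the version of RSEM are not given in the sources used here. Counts were used without rounding. Genes entered where the geometric mean over libraries (1 added to each count and then subtracted) was at least 1, which removed 33936 genes.

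The test was limma-voom (limma 3.58.1, R 4.3.3) with TMM factors from edgeR 4.0.16, a mean for each of the 6 groups in 1 fit of all libraries, a moderated variance (6.12 prior degrees of freedom) and p-values adjusted after Benjamini and Hochberg over 24342 genes. Every adjusted and unadjusted p without a named test comes from this fit. Ratios were compared with exact two-sided permutation tests in Python 3.11.15 (numpy 2.4.6). A library of this depth gives about 3 counts as the limit of detection, which covers counting error only, and no member came near it. Alternatives were edgeR's quasi-likelihood test and DESeq2 1.42.0, both on rounded counts, relative log expression factors or library size alone, no filter (37730 genes) or the default filter of edgeR (19420 genes), only the groups compared, the replicate number as a block, another call rule, and each replicate left out in turn. The fitting code was tested on simulated data.

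The 8 members, the 44 subunits, the 3 ratios and the marker lists were chosen with earlier results of these data known. Beside the members the text names, per complex, at most the 2 largest rises and the 2 largest falls by mean log2 fold change over the 4 comparisons with TN, among called subunits whose SCFA and TN libraries do not overlap, then 3 genes per member with the highest correlation, and genes that overlap a member or are its copies. CDK2AP1, MORF4L1, ZMYM3, RCOR2, TRERF1 and TBL1XR1 were named after their values were seen. For 1 of the subunits and 1 of the correlated genes, values are not reported here. Positions and transcript lengths are from GENCODE 44 on GRCh38.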

Additional observations from a re-analysis of the deposited data

How the results depend on the processing

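Of 1219 values recomputed under an alternative, 1126 kept their direction and their call (fold change over 1.5 and adjusted p under 0.05), or a count within 1.5 times. On the adjusted p alone, 51 of 792 values of single members moved to the other side of 0.05, among them the rises of SIN3A, SIN3B and RCOR1 against TN, which were lost whenever 1 replicate of the groups compared was left out. HDAC3 was called in each of the 4 comparisons with TN and in each SCFA group vs Ctrl under every alternative run for a single gene, and none of the comparisons between SCFAs or times gained a call among the 8 members. With 2 replicates per group, leaving one out leaves a lone library, which is assumed to vary like the other groups.

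On the adjusted p alone, the members that passed were 6, 5, 5 and 4 for PRTN, BUTN, TNPR and TNBU vs TN and 5, 4, 4 and 4 for the same groups vs Ctrl, and the subunits that passed were 3 for TN vs Ctrl, 38, 39, 39 and 41 vs TN and 37, 36, 37 and 36 vs Ctrl. Of all tested genes, 3.51% passed for TN vs Ctrl. In the 4 comparisons with TN, 30.6%, 29.7%, 31.6% and 31.3% of all tested genes rose and 25.8%, 25.4%, 26% and 26% fell. At a fold change over 2, the members were 0, 0, 1 and 0 vs TN and 0, 0, 1 and 0 vs Ctrl, and the subunits 0 for TN vs Ctrl, 2, 3, 3 and 2 vs TN and 4, 5, 5 and 6 vs Ctrl. The shares of all tested genes at a fold change over 2, and on the adjusted p alone for SCFA groups vs Ctrl, were not counted. Those counts therefore do not set members or subunits apart from other genes. With edgeR and with DESeq2, 1 member was called for TNPR vs TN and 1 for TNBU vs TN, since NCOR1 went under 1.5-fold. Scaling by library size alone called 2 members for PRTN vs TN and 2 for PRTN vs Ctrl. With no filter and with the default filter of edgeR, 2 members were called for PRTN vs Ctrl, and with no filter 0 subunits for TN vs Ctrl.

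Libraries with the same replicate number showed no strong shared deviation, which does not tell whether the cultures were paired. Over 15 pairs of groups, same-numbered libraries had correlations of their deviations from -0.0347 to 0.0658, and 0 pairs were over 0.1. With the replicate block, 0 subunits were called for TN vs Ctrl, and no count of called members changed. Permuting the ratios within the replicate block gave p = 0.00444 for HDAC2 to HDAC1 and for HDAC3 to NCOR1 (exact permutation).

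Leaving out single replicates, members called ranged from 1 to 2 for PRTN vs Ctrl, TNPR vs TN, TNBU vs TN and TNBU vs Ctrl, and subunits from 0 to 1 for TN vs Ctrl and from 11 to 20 for TNBU vs Ctrl, with 11 when TNBU replicate 2 was left out.

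Signs turned for the values below, which did not pass the test in the reported fit. The log2 fold change of HDAC3 for TN vs Ctrl was 8e-04 with DESeq2, 0.0017 with relative log expression factors and 0.0058 with only the groups compared. HDAC8 had 0.1381 for PRTN vs TN by library size alone, and for BUTN vs TN -0.0049 with no filter and -0.0129 with the default filter of edgeR. RCOR1 had 0.1509 for TNPR vs TN and 0.1087 for TNBU vs TN by library size alone. Leaving out single replicates moved HDAC3 for TN vs Ctrl between -0.0346 and 0.018, HDAC8 between -0.1122 and 0.0086 for PRTN vs TN, between -0.0325 and 0.0346 for BUTN vs TN and between -0.0216 and 0.009 for TNPR vs TN, SIN3B between -0.0267 and 0.1059 for BUTN vs TN, SIN3A between -0.0404 and 0.2972 for TNBU vs TN, and RCOR1 between -0.2572 and 0.0246 for TNBU vs TN and between -0.0786 and 0.2032 for TNBU vs Ctrl. The cause of these changes was not tested.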
